A study of Rattus norvegicus with 4 samples.

Results

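The leukocyte immunoglobulin-like receptors (LILR), with the paired immunoglobulin-like receptors (PIR) that take their place in rodents, were described in RNA of the rat middle ear mucosa 1 week after inoculation. Every feature of the expression table whose gene name began with LILR, or was PIRB, was taken, which gave 13 of 27832 features. Of these, 8 were named Lilrb3, 3 were named Lilrb4 or LILRB4, 2 were named LILRA5, and 0 were named PIRB. The mucosa came from Sprague-Dawley rats, for which no genetic alteration was stated, and was scraped from the bulla. The Media library came from rats given medium only, the MRSA library from rats given methicillin-resistant Staphylococcus aureus, the PA library from rats given Pseudomonas aeruginosa, and the MRSA + PA library from rats given a mixed culture of both species. The bacteria were injected through the eardrum of the right ear in 50 µL of medium. The treatment text of the labels speaks of MRSA for all 4 libraries, so the groups were taken from the inoculum label of each. Each condition had 1 library, and the number and age of the rats behind it were not stated, so no difference below could be set against a replicate error and none was tested. The family was chosen by its gene names, after the FPKM of its most abundant feature had been seen to differ between libraries, so its values are given as a description.

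Receptors of this family sit on the surface of myeloid cells and B cells and are called paired because inhibitory and activating members share similar outer immunoglobulin domains. Inhibitory members, named with a B, carry tyrosine motifs (ITIM) in their tail that recruit phosphatases such as the product of Ptpn6 and dampen activating signals. Activating members, named with an A, have a short tail and signal through an adaptor with an activating tyrosine motif (ITAM), in most cases the Fc receptor gamma chain encoded by Fcer1g. The known ligands of several members are MHC class I molecules, and in the mouse the inhibitory receptor PIR-B, a counterpart of the human LILRB group, binds MHC class I. Mouse Lilrb4, also known as gp49B, is an inhibitory receptor of mast cells, macrophages and other leukocytes, and human LILRA5 is an activating receptor of monocytes. The genes lie in the leukocyte receptor complex, whose members are close copies of each other.

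All 13 features lay on chromosome 1 in 3 groups, at positions given here as the table lists them, without a named genome build. 11 were on the plus strand and 2 on the minus strand, and their spans ranged from 689 to 69576 bases. The authors' status column called 5 of them known genes, 6 known genes with new isoforms, and 2 newly assembled genes without an earlier annotation. Levels are given as FPKM, fragment numbers scaled by the authors to transcript length and library size. Where 4 values follow each other they stand for Media, MRSA, PA and the mixed inoculum MRSA + PA, and where 3 values do they stand for the inoculated libraries alone. 4 of the 13 features were listed at 0 in every library, and the other 9 were above 0 in every library. All 4 at 0 had the known status, a class in which 46.1% of 10265 features were at 0 in all libraries, against 17.5% of all features. The share was 1.16% among known genes with new isoforms and 0% among newly assembled genes. A 0 thus went mostly with the known status outside the family too. FPKM gives no read counts, so a listed 0 says only that the authors' quantification assigned no fragments to that copy. Where close copies share sequence, reads could be divided between them by the authors' multi-read correction, so the level of each single copy is uncertain. In bulk tissue, more cells of a type and more RNA per cell cannot be told apart. The libraries also stood apart in RNA of skeletal muscle, which was abundant in Media and MRSA and low in both libraries with PA, and its values are given beside those of TBIG000252.

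The first group spanned 240 kb from 62834637 to 63074675 around Rps9, a ribosomal protein gene at the edge of the complex, and held 5 features named Lilrb3. The nearest named features outside it were a short FAM120A feature with 91.4, 90.9, 151 and 106 FPKM, and Tsen34 TBIG001880, of a tRNA splicing enzyme, with 1.47, 0.827, 0.529 and 0.204. TBIG000189 (62834637 to 62841320, plus strand, known) had 2.91, 8.84, 3.03 and 5.26 FPKM. It was highest in MRSA, and PA lay next to Media. The next 3 copies, TBIG000190 (62876239 to 62882940), TBIG000191 (62912681 to 62919376) and TBIG000192 (62956410 to 62960607), all on the plus strand and known, were the Lilrb3 features at 0 throughout. TBIG000195 (63066389 to 63074675, plus strand, new isoforms) had 8.17, 22.5, 45.9 and 30.9 FPKM, and was thus highest in PA. This feature lay within the listed spans of Mboat7, a lysophospholipid acyltransferase gene on the same strand, and of Rps9 on the opposite strand. Mboat7 had 11.4, 16.0, 16.5 and 14.9 FPKM. Rps9 had 61.1, 815, 989 and 1186 FPKM and was also lowest in Media, and because the library kit was not stated to keep strand, reads of overlapping features cannot be told apart.

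The second group spanned 99.7 kb from 69993800 to 70093488 between Vmn2r116 features, vomeronasal receptor genes that were at 0 in all libraries on both sides. TBIG001932, named LILRA5 (69993800 to 69998776, minus strand, new isoforms), had 1.16, 5.47, 8.49 and 5.30 FPKM. TBIG000250, named Lilrb3 (70023913 to 70093488, plus strand, new isoforms), had 3.75, 9.45, 12.9 and 10.9 FPKM. Both were lowest in Media and highest in PA. TBIG000252, also named Lilrb3 (70073928 to 70090178, plus strand, newly assembled), had 123 FPKM in Media and 537 in MRSA, but 1.03 in PA and 0.152 in MRSA + PA. It was therefore abundant in the libraries without PA and low in the libraries with PA. Its whole span lay inside that of TBIG000250 on the same strand, and the levels of these 2 features depend on how the authors' assembly divided the reads between them.

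The third group spanned 289 kb from 74865730 to 75154600 between Cdc42ep5, which encodes an effector of the GTPase Cdc42, and Kir3dl1, a killer cell immunoglobulin-like receptor gene. TBIG000279, named LILRB4 (74865730 to 74866472, plus strand, newly assembled), was the feature with the lowest levels above 0, at 0.610, 1.77, 1.02 and 0.762 FPKM. TBIG000280, named LILRA5 (74887460 to 74895210, plus strand, new isoforms), had 7.68, 14.1, 13.3 and 13.4 FPKM. The inoculated libraries lay close together for this receptor and all above Media. TBIG000281, named Lilrb3 (74926417 to 74935975, plus strand, new isoforms), had 5.11 FPKM in Media against 28.4, 22.1 and 19.6 after inoculation. TBIG001966, named Lilrb4 (75123682 to 75124370, minus strand, known), was at 0 in all libraries. TBIG000282, named Lilrb4 (75146915 to 75154600, plus strand, new isoforms), had 19.7 FPKM in Media and 124, 119 and 120 FPKM after inoculation. Every feature above 0 in this group was lowest in Media. The flanking genes did not share this order, since Cdc42ep5 had 13.1, 13.6, 11.1 and 12.0 FPKM and Kir3dl1 was below 0.1 FPKM in each library.

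**Figure D1:**
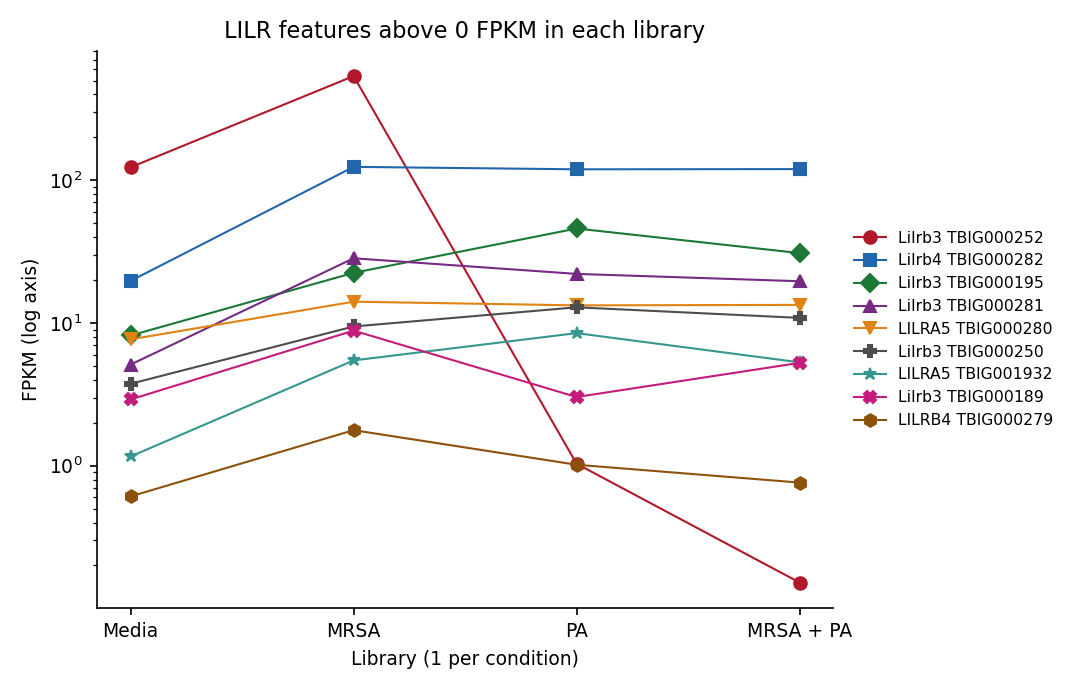
FPKM (log axis) of the 9 LILR features above 0 in each of the 4 libraries, 1 library per condition, so there are no error bars and the lines only join the points of a feature. TBIG000252 runs from 537 FPKM in MRSA to 0.152 in MRSA + PA, while Lilrb4 TBIG000282 lies between 119 and 124 FPKM in the inoculated libraries.

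In RefSeq's GRCr8 assembly of the rat, the neighbourhood between Kir3dl1 and Cdc42ep5 holds Lilrb4, the pseudogene Lilrb4-ps1, Lilrb3 and Lilra5 in this order, with the unrelated pseudogenes Mospd1-ps1 and Odc1-ps7 at its ends. Lilrb4 TBIG000282, Lilrb3 TBIG000281 and LILRA5 TBIG000280 stand in the same order from Kir3dl1, and were taken as the RefSeq genes of those names. The short LILRB4 feature TBIG000279, between LILRA5 and Cdc42ep5, has no family gene in its place in RefSeq. A fixed set of 10 family symbols was looked up in RefSeq, 8 protein coding and 2 pseudogenes. RefSeq places Lilrc2, Pira12, Lilrb2, Pira2, Lilrb1 and Pirb beside Rps9. Entries that carry only a LOC number lie among them and were not checked for membership, so the set may not be the whole family. The Lilrb3 features of the first and second groups, TBIG000252 included, were not assigned to any RefSeq symbol, because the table names them all alike. LILRA5 TBIG001932 of the second group was not assigned either. The 250 bases upstream of the start of the 3 assigned genes are shown because these members were all above Media after each inoculum, each read 5′ to 3′ toward the start on the minus strand of GRCr8. They lie at chr1:78853253-78853502 for Lilrb4, chr1:79011055-79011304 for Lilrb3 and chr1:79050112-79050361 for Lilra5. Capitals mark matches to GAGGAA, which reads TTCCTC on the other strand and is a core of sites of the myeloid factor PU.1, and to TTGCNNAA, which reads TTNNGCAA on the other strand and is a core of C/EBP sites.
Lilrb4: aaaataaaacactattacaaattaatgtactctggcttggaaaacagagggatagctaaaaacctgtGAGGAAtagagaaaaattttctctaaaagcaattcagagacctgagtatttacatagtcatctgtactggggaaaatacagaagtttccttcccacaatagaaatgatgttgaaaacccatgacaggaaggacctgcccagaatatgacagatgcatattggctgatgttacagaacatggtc
Lilrb3: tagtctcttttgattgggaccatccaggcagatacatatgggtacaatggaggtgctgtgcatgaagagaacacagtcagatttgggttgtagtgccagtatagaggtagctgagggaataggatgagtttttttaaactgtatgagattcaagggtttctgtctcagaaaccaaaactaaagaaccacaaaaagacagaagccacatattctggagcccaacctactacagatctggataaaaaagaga
Lilra5: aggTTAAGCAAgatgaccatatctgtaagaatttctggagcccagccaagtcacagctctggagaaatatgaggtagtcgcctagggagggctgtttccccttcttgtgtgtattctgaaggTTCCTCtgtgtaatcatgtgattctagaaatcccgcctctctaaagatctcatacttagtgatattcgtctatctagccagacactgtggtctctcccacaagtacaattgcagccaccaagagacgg
The Lilrb4 sequence held 1 GAGGAA at position -183 from the start, the Lilrb3 sequence held neither motif, and the Lilra5 sequence held GAGGAA on the opposite strand at -128 and TTGCNNAA on the opposite strand at -247. GAGGAA was present on either strand in 7 of the 8 family promoters of this length and in 23.3% of all 33469 rat promoters. TTGCNNAA was present in the family promoters of Lilrc2 and Lilra5 only, and in 9.22% of all rat promoters. Some family promoters are close copies of each other, so their matches are not independent, and no enrichment was tested. The GC content of the printed sequences was 36.8%, 41.2% and 46% for Lilrb4, Lilrb3 and Lilra5. Among the 28 pairs of family promoters, Lilrb1 and Pirb were the most alike, with 88.8% identical aligned positions. Lilrb2 shared 72.7% with Pirb and 69.7% with Lilrb1, and every other pair lay between 35.1% and 51.9%. The printed pairs with Lilrb3 shared 50% and the pair of Lilrb4 and Lilra5 50.2%. The identity of unrelated promoters aligned in this way was not computed, so these values show no particular likeness. A motif match is a description of these letters and no measured binding.

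TBIG000252 was the most abundant member by mean and the only one that was at least 2-fold lower in any inoculated library than in Media. With 0.1 FPKM added to each value, its log2 difference from Media was 2.12 with MRSA, -6.77 with PA and -8.94 with both species. As FPKM, its level in PA was 0.192% of that in MRSA and its level in MRSA + PA was 0.0283%. With 0.1 FPKM added, MRSA exceeded PA by 474-fold and MRSA + PA by 2132-fold. Among all features it ranked 219 by level in MRSA and 851 in Media, but 15629 in PA and 19606 in MRSA + PA. In the direct comparison of the libraries with PA it was lower in MRSA + PA than in PA by a log2 value of -2.17, a difference between 2 low levels.

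A split between the libraries with and without PA was also present outside the family. Of the 15944 features that averaged 1 FPKM or more over the libraries, 79 (0.495%) were at least 20-fold lower in both PA and MRSA + PA than in both Media and MRSA, a criterion set after the values of TBIG000252 were known. All 6 genes of the skeletal muscle list, which encode contractile and energy proteins of muscle fibres, were among them. Their summed level was 6154, 2260, 3.47 and 0.700 FPKM, and Ckm, the muscle creatine kinase, had 1028, 409, 0.187 and 0.0901 FPKM. The muscle genes were lower in MRSA than in Media, whereas TBIG000252 was higher there. This opposite order was shared by 4 of the 79 features (0.0251% of all), while 75 had Media above MRSA. Beside TBIG000252 these were an Rps2 feature on chromosome 10 with 84.1, 96.0, 0 and 0 FPKM, another Rps2 feature on chromosome 2 with 7.05, 7.72, 0.0525 and 0 FPKM, and an unnamed feature of 422 bases on chromosome 16 with 2.23, 2.93, 0 and 0 FPKM. Rps2 encodes a ribosomal protein. The part of the muscle content of the libraries in the levels of TBIG000252 was not tested.

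**Figure D2:**
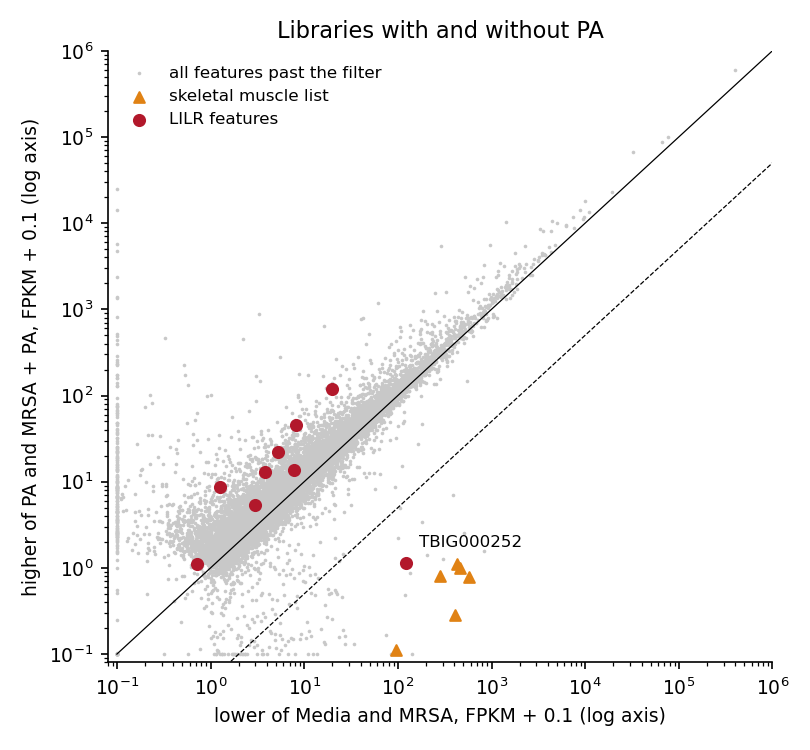
Each point is a feature averaging 1 FPKM or more, placed by the lower of its Media and MRSA values (x) and the higher of its PA and MRSA + PA values (y), both as FPKM + 0.1 on log axes, with a solid line of equality and a dashed line at 20-fold. TBIG000252 lies below the dashed line with the 6 skeletal muscle genes (triangles), and the other 8 LILR features (circles) lie on or above the line of equality.

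Lilrb4 TBIG000282, in the mouse an inhibitory receptor, was the second most abundant member and was alike in the inoculated libraries. Its log2 differences from Media were 2.65, 2.59 and 2.60, corresponding to 6.27-fold, 6.02-fold and 6.05-fold. Between the inoculated libraries it differed by no more than 0.06 on the log2 scale. Without replicates, the error of these values is not known.

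The other Lilrb3 features above 0, apart from TBIG000252, lay above Media to different degrees, except that TBIG000189 in PA lay next to Media. TBIG000281 of the third group had log2 differences of 2.45, 2.09 and 1.92, with MRSA highest. TBIG000195 had 1.45, 2.48 and 1.91 and TBIG000250 had 1.31, 1.75 and 1.51, with PA highest in both. TBIG000189 had 1.57, 0.05 and 0.83 (-0.01 in PA under median-of-ratios scaling), so that only its MRSA level was at least 2-fold above Media. The short feature named LILRB4, TBIG000279, had 1.40, 0.65 and 0.28, from levels of around 1 FPKM.

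The 2 features named LILRA5 differed from Media to different degrees. Only TBIG000280 was taken as the RefSeq gene Lilra5, and TBIG001932 was not assigned to a gene, so they share a name but may be different genes. TBIG001932 of the second group had log2 differences from Media of 2.14, 2.77 and 2.098. TBIG000280 of the third group, the more abundant of the pair, had 0.87, 0.78 and 0.79 and stayed under 2-fold in each library. The sum of the 2 features was 8.84, 19.6, 21.8 and 18.7 FPKM.

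To ask how many members differed from Media, features at least 2-fold apart were counted among the 9 members above 0 and among all 15944 features above the same mean level. In MRSA, 8 members were higher and 0 lower, beside 8.47% and 4.95% of all features. The 8 include LILRB4 TBIG000279, with a mean of 1.04 FPKM, which its MRSA value carried past the mean level. With 1 FPKM added, or with a mean of at least 5 FPKM, 7 members were higher in MRSA. In PA, 5 members were higher and 1 was lower, beside 10.0% and 7.80%. In MRSA + PA, 5 were higher and 1 was lower, beside 7.78% and 7.83%. The member higher in MRSA by less than 2-fold was LILRA5 TBIG000280, and the lower member was TBIG000252 in both libraries with PA. The median log2 difference of the members was 1.57, 1.75 and 1.51, beside 0.05, 0.07 and 0.05 over all features. 5 members (TBIG000282, TBIG000281, TBIG000195, TBIG000250 and TBIG001932) were at least 2-fold higher with all 3 inocula, beside 5.12% of features. The 3 comparisons share the Media library, so they are not independent of each other.

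Between the inoculated libraries, 4 of the 9 members were at least 2-fold apart in some pair and the other 5 were not. In MRSA + PA against MRSA, 0 members were at least 2-fold higher and 2 were lower (1.61% and 5.73% of features). They were TBIG000252 by a log2 value of -11.06 and LILRB4 TBIG000279 by -1.12, whose place in the count rests on its MRSA value. In MRSA + PA against PA, 0 were higher and 1 was lower, TBIG000252 (2.50% and 4.27%). In PA against MRSA, 1 was higher and 2 were lower (3.54% and 5.03%). TBIG000195 was the higher one, at 1.03, and TBIG000252 and TBIG000189 were lower, at -8.89 and -1.51.

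With near 0 defined as under 0.1 FPKM, the 4 features listed at 0 were near 0 in every library and 0 members were near 0 in some libraries only. Over all features, 26.3%, 25.7%, 25.8% and 27.5% were near 0 in Media, MRSA, PA and MRSA + PA, and 10.4% were near 0 in some but not all. TBIG000252 in MRSA + PA, at 0.152 FPKM, lay just above this limit. With a limit of 0.5 FPKM it was the single member near 0 in 1 library and above in the others. Over all features, 14.8% were near 0 in some but not all libraries at that limit. No other member crossed either limit between libraries, and the lowest level just above 0.5 FPKM was that of TBIG000279 in Media.

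Reads of close copies can move between features, and the FPKM of all members was also summed in each library. FPKM is scaled to transcript length, so the sum also changes when reads move between features of different length. The sums and shares below therefore depend on how the authors' assembly set those lengths and divided the reads. The sum was 172, 752, 227 and 206 FPKM. TBIG000252 made up 71.5% of it in Media and 71.4% in MRSA, but 0.455% in PA and 0.0738% in MRSA + PA. Without this feature the sum was 49.1, 215, 226 and 206 FPKM, so that the inoculated libraries were 4.37-fold, 4.601-fold and 4.19-fold above Media. With it, the log2 difference of the sum from Media was 2.12 in MRSA but 0.40 in PA and 0.26 in MRSA + PA. Lilrb4 TBIG000282 made up 40.1% of the sum without TBIG000252 in Media and 57.8%, 52.8% and 58.2% of it after inoculation.

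By place, the first group summed to 11.1, 31.3, 49.0 and 36.1 FPKM, and the third group to 33.1, 168, 156 and 154. The second group summed to 128, 552, 22.4 and 16.3, and without TBIG000252 to 4.91, 14.9, 21.4 and 16.2. Each group was thus lowest in Media once this feature was set aside. By name, the Lilrb4 features summed to 20.3, 126, 120 and 121 FPKM, and the Lilrb3 features without TBIG000252 to 19.95, 69.2, 83.9 and 66.6.

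**Figure D3:**
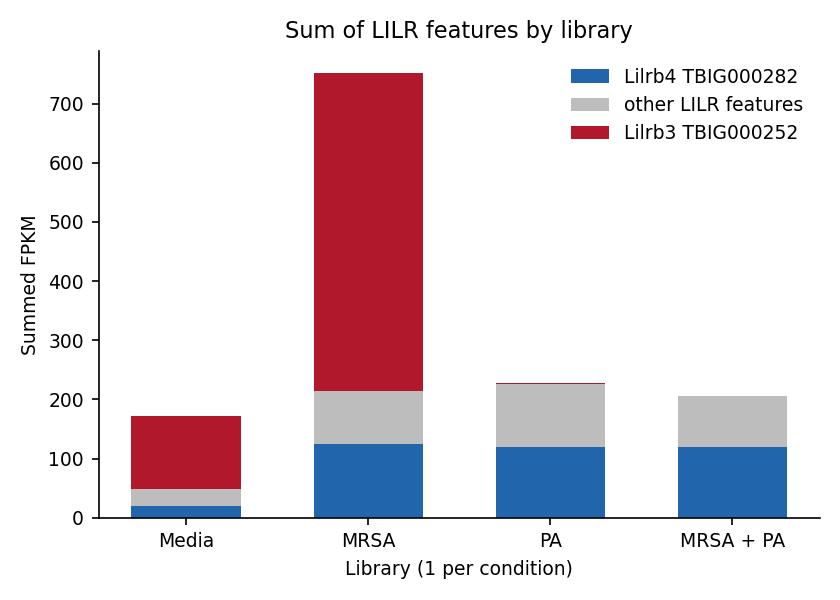
Bars give the summed FPKM of all LILR features in each of the 4 libraries (1 library per condition, no error bars), from 0, divided into Lilrb4 TBIG000282, Lilrb3 TBIG000252 and the other features. TBIG000252 takes 71.4% of the 752 FPKM in MRSA and 0.455% of the 227 FPKM in PA, where the rest of the bar is of similar height.

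The genes through which these receptors signal were set beside them, each gene represented by its most abundant feature. Of 16 adaptors, kinases and phosphatases of ITIM and ITAM signalling, 10, 8 and 9 exceeded Media by 2-fold or more. The number at least 2-fold lower was 0 in each, and the median log2 differences were 1.18, 0.98 and 1.09. Fcer1g, the adaptor of activating LILR and PIR members, had 182 FPKM in Media and 563, 409 and 390 after inoculation. Tyrobp, the adaptor DAP12 of other paired receptors, had 207, 541, 365 and 552 FPKM, and Hcst, the adaptor DAP10, had 14.9, 49.1, 33.8 and 56.4. All of these adaptors were lowest in Media. Ptpn6, the phosphatase recruited by ITIMs, had 27.9, 60.1, 49.3 and 59.5 FPKM. The Src family kinase Fgr, with 7.78, 32.1, 34.7 and 30.6 FPKM, had the largest difference from Media in the list, at 2.14 on the log2 scale in PA. Lcp2, the adaptor SLP-76, differed less, with 40.1, 54.0, 57.9 and 60.9 FPKM.

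Ligands and binding partners described for members of the family, in human or mouse, gave a mixed picture. Of 15 listed, 13 reached the mean level used for the counts, and 2, 1 and 3 of these exceeded Media by 2-fold or more. In each library 1 was at least 2-fold lower. Their median log2 differences were 0.46, 0.55 and 0.64. B2m, which encodes the beta-2 microglobulin subunit shared by MHC class I molecules, had 1772 FPKM in Media and 4739, 3479 and 4447 after inoculation. Apoe, a ligand described for human LILRB4, had 3540, 12184, 6352 and 8170 FPKM and was highest in MRSA. Fn1, which encodes fibronectin, had 81.1, 122, 369 and 153 FPKM and was highest in PA. S100a8 had 196, 277, 287 and 306 FPKM and S100a9 had 164, 226, 243 and 210, less than 2-fold apart in each library. Cntfr, a cytokine receptor, was the one at least 2-fold lower in each, with 25.7, 8.02, 4.04 and 5.44 FPKM.

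Other immune receptors that come in activating and inhibitory forms, or signal through the same adaptors, were for the most part higher along with the LILR features. Of 34 listed, 30 matched and 25 reached that level, of which 18, 20 and 20 exceeded Media by 2-fold or more. The number at least 2-fold lower was 0 in each, and the medians were 1.78, 1.75 and 1.45 on the log2 scale. Clec4a, a C-type lectin receptor, had 52.3, 199.96, 169 and 171 FPKM. Trem2, a receptor of macrophages that pairs with DAP12, had 27.2, 103, 70.8 and 65.3, and Fcgr3, a low-affinity receptor of IgG, had 29.6, 108, 58.9 and 73.0. Sirpa, the inhibitory receptor for CD47, had 45.1, 83.1, 82.4 and 71.97 FPKM. The first 3 of these were highest in MRSA, and Sirpa was less than 2-fold above Media in each library. The largest differences from Media were those of low genes, with log2 values of 3.55, 2.58 and 2.46 for SIGLEC10, 2.76, 2.78 and 2.64 for Trem1, and 2.74, 1.78 and 1.47 for Cd300e.

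Genes that share the leukocyte receptor complex and its surroundings with the family differed less from Media in their median. Of 32 listed, 23 of the 30 matched were counted, of which 3, 5 and 5 lay 2-fold or more above Media and 2, 2 and 2 below it, with medians of 0.13, 0.17 and 0.10. Ndufa3, a subunit of respiratory complex I, had 499, 547, 327 and 455 FPKM, Myadm had 48.8, 62.0, 71.2 and 54.4, and Leng8 had 33.7, 26.6, 37.8 and 26.5. Rps9, described above, had log2 differences of 3.74, 4.01 and 4.28. Apart from Rps9, the genes 2-fold or more above Media were all immune receptors. They were Ncr1 and GP6 with every inoculum, and Oscar and VSTM1 in PA and MRSA + PA only. These receptors were also counted in the list of other immune receptors, so the lists are not independent. Ncr1 was counted again among the natural killer cell genes, and GP6 among the platelet genes. Tnnt1, the slow skeletal muscle troponin T, had 52.2, 25.8, 1.31 and 1.35 FPKM, and Cacng6, a calcium channel subunit of skeletal muscle, had 5.96, 3.07, 0.424 and 0.570. These muscle genes of the complex were low in the libraries with PA, as were the genes of the muscle list.

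**Figure D4:**
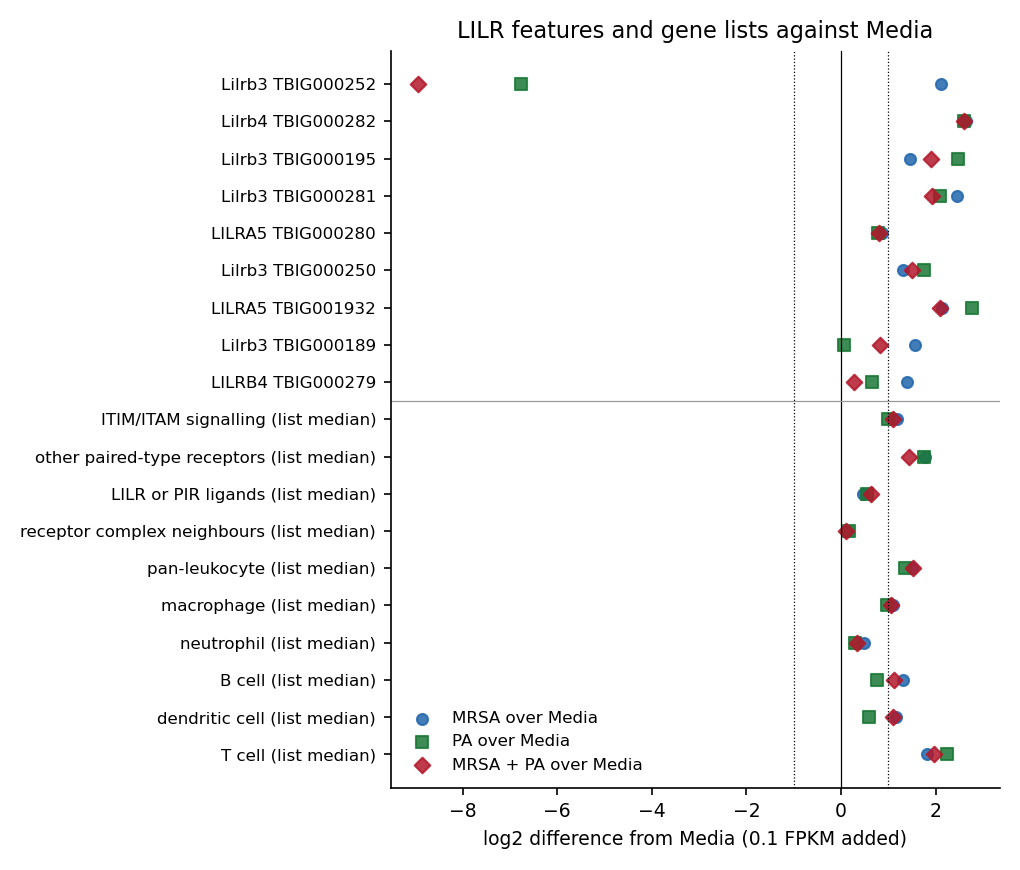
Log2 differences from Media (0.1 FPKM added) in MRSA (circles), PA (squares) and MRSA + PA (diamonds) for the 9 LILR features above the grey line and for the medians of gene lists below it, with dotted lines at 2-fold. Every point of the family except those of TBIG000252 in PA and MRSA + PA lies at or right of 0, and the median of the other paired-type receptors reaches 1.78 in MRSA.

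Of the cells that can carry these receptors, markers of leukocytes in general and of macrophages were for the most part above Media in the inoculated libraries, while those of neutrophils were mixed. The 6 pan-leukocyte genes had medians of 1.49, 1.35 and 1.52 on the log2 scale, and their summed level was 358 FPKM in Media and 965, 875 and 907 in the others. Ptprc, the leukocyte antigen CD45, had 18.7, 61.3, 64.3 and 56.9 FPKM, and Itgb2, the integrin chain CD18, had 18.5, 101, 84.99 and 75.8. Of 11 macrophage markers counted, 7, 5 and 6 exceeded Media by 2-fold or more and 0 were at least 2-fold lower. Their medians were 1.09, 0.98 and 1.06 and the sums of the list were 490, 1052, 967 and 993 FPKM, while Marco was at or near 0 in all libraries. Emr1, the macrophage antigen F4/80, had 19.7, 112, 74.3 and 77.0 FPKM, Siglec1 had 1.80, 10.3, 9.10 and 6.67, and C1qa, a chain of complement C1q, had 111, 237, 204 and 234. Of 8 neutrophil markers, 2 were at least 2-fold higher in each inoculated library and 0, 1 and 0 were at least 2-fold lower. Their medians were 0.48, 0.29 and 0.34 and the sums of the list were 405, 562, 604 and 563 FPKM, while Ltf was at or near 0. The 2 at least 2-fold higher were Csf3r, the G-CSF receptor, with 2.25, 9.04, 30.4 and 10.1 FPKM, and Cxcr2, with 1.37, 4.35, 15.2 and 5.89. Mpo, the myeloperoxidase of neutrophil granules, was below Media in each inoculated library, with 3.55, 2.61, 1.52 and 2.75 FPKM. Camp, an antimicrobial peptide gene, had 31.8, 35.1, 23.0 and 21.7 FPKM, and Mmp8, the neutrophil collagenase, had 4.40, 5.38, 2.90 and 5.56. The part of cell content in the levels of the LILR features was not tested.

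The lists of other cells gave the following medians of log2 differences from Media. The 7 B cell genes had 1.32, 0.77 and 1.13, with a sum of 22.3 FPKM in Media and 57.4, 37.1 and 41.7 in the others. The 7 dendritic cell genes had 1.15, 0.58 and 1.10, and the 6 natural killer cell genes had 1.84, 0.43 and 1.85. The 7 T cell genes, a cell type that is not a main carrier of the family, had 1.81, 2.24 and 1.97, and all 7 were at least 2-fold higher in each inoculated library. Osteoclast genes, with 8 members, had 0.23, -0.75 and 1.00, and their sum was 1788, 1888, 1018 and 3695 FPKM. The 8 mast cell and eosinophil genes had 0.24, -0.27 and -0.51, and the 3 platelet genes had 1.93, 0.24 and 0.33. The muscle list had -1.45, -10.65 and -12.34. The labelled tissue was checked against 8 epithelial genes, with medians of 0.18, 0.32 and 0.02, and all were detected in every library. Epcam, an epithelial adhesion protein, had 237, 266, 254 and 222 FPKM, and Bpifa1, which airway epithelium secretes, had 25725, 11118, 7472 and 13362.

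The profile of TBIG000252 over the 4 libraries was compared with that of each of 10856 other named features that averaged 5 FPKM or more, by the root mean square distance of centred log2(FPKM + 0.1) values. The nearest was an Rps2 feature at 1.12, followed by a retroviral pol feature at 1.20, actc1 at 1.25, Acta1 at 1.34 and Atp2a1 at 1.38. The actins actc1 and Acta1 belong to the contractile apparatus of striated muscle, and Atp2a1 is its calcium pump. 0 features lay within a distance of 0.5, so no named feature followed TBIG000252 closely.

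Between 21504 and 21898 features were above 0 in each library. The FPKM of features of at least 300 bases summed to between 692953 and 779182, and that of all features to between 1.50e+06 in MRSA + PA and 2.03e+06 in MRSA. From the smallest steps of low values, the relative depth of the inoculated libraries was estimated as 1.12, 1.20 and 1.08 with Media set to 1. These estimates rest on the most common ratio to Media, near which lay 121 of 683, 45 of 592 and 134 of 676 low features. They assume that this ratio stands for 1 fragment in both libraries, so they are rough. The number of reads behind each value was not known.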

How the data were processed

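RNA of the middle ear mucosa was enriched for poly(A), made into libraries with the TruSeq RNA kit and sequenced, with each condition in 1 library. The authors' deposited FPKM values came from quality-filtered reads mapped with STAR 2.3.0e and quantified with Cufflinks 2.1.1 (versions from the submitters' processing notes), with corrections for multi-reads and fragment bias. The study's methods name a human Ensembl reference although the chromosomes are those of the rat, and the build is not given in the sources used here, so positions are printed as listed and not joined to GRCr8. The 3 comparison tables hold the authors' fold changes, p-values and calls and were not used. Read counts are unknown, so no interval was computed.

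Log2 ratios were computed after adding 0.1 FPKM for features that averaged 1 FPKM or more, for all 6 pairs of libraries, and those 2-fold or more apart were counted without a test. Members were matched on gene name. Every member was named, with, for each of 16 lists, the 4 most abundant genes and the 3 with the largest difference from Media, of which some are given only through their list, the nearest named feature beside each group, and the 5 features nearest in profile to the most abundant member. Members and lists were chosen with earlier results of these data known. Promoters were taken from RefSeq, searched on both strands and aligned globally. Alternatives were a pseudocount of 1 or 0.01 FPKM, other scalings and filters, a 1.5-fold limit, other limits for near 0, and sums without the most abundant member. Python 3.11.15, numpy 2.4.6, pandas 2.3.3 and matplotlib 3.10.9 were used. The calculations were checked on copies of the Media values with set fold changes and no noise. That check does not cover low levels or reads shared between copies.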

Additional observations from a re-analysis of the deposited data

Results flagged for a closer look

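Lilrb3 TBIG000252 differed from Media in opposite directions between the inocula, with log2 values of 2.12 with MRSA, -6.77 with PA and -8.94 with both species. With 1 library per condition, the difference between these values was not tested.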

How the results depend on the processing

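Of the counts, sums and shares of near 0 features recomputed under the alternatives, 88 values stayed within 1.5-fold of the reported one, 12 moved by more and 0 changed sign. Of the log2 differences of single members, 207 stayed and 9 moved, and of the differences of at least 2-fold 0 changed direction. The sign changed in 5 values whose reported size was at most 0.09, reaching at most 0.13 in size: TBIG000189 in PA over Media became -0.01 under median-of-ratios scaling, and TBIG000280 and TBIG000282 in PA against MRSA and against MRSA + PA changed sign under equal FPKM sums. With 1 FPKM added, 1 member was at least 2-fold lower in MRSA + PA than in MRSA, and 0 were at least 2-fold lower than in PA. With a mean of at least 5 FPKM, 1 member was at least 2-fold lower in MRSA + PA than in MRSA. Counted at 1.5-fold or more, 1 member was higher and 2 were lower in MRSA + PA than in PA. At that limit 2 were higher in PA than in MRSA. The share of all features was not computed for these counts. Under a limit of 0.5 FPKM, 1 member was near 0 in some libraries only, beside 14.8% of all features. Without TBIG000252, the log2 difference of the family sum from Media was 2.20 in PA and 2.07 in MRSA + PA. Among the 6 members that overlap no other feature, 5, 3 and 3 exceeded Media by 2-fold or more with MRSA, PA and both species. Those members were a choice made after seeing the data, and the numbers are smaller because fewer members were counted. The share among all features that overlap no other was not computed. With 1 FPKM added, TBIG000252 differed from Media by -5.93 in PA and -6.75 in MRSA + PA, and by -0.82 between MRSA + PA and PA, so the size of its difference at low levels rests on the pseudocount.

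A sum of FPKM times transcript length was not run, since only genomic spans are listed. No paired analysis was possible because each condition has 1 library, and leaving out a library was not run. Counting error and the spread between rats are unknown for every value.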

Other observations

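The features nearest in profile to the other members were looked up after their values had been seen. Lilrb4 TBIG000282 was nearest to a Clec4a feature (TBIG019332, with 6.25, 38.2, 34.8 and 35.3 FPKM across the Media, MRSA, PA and mixed libraries), at a root mean square distance of 0.05 on the log2 scale. Trem1, a receptor of neutrophils and monocytes, followed at 0.07, and the T cell receptor chains Cd3d, Cd3e and Cd3g at 0.07, 0.09 and 0.10. These were the 5 features within 0.1 of 10856 compared.

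Lilrb3 TBIG000281 was nearest to Ccl22, a chemokine gene of macrophages and dendritic cells with 1.29, 7.92, 5.76 and 5.36 FPKM, at 0.04. Itgb2 followed at 0.06, Cybb, the catalytic subunit of the phagocyte oxidase, at 0.08, Emr1 at 0.09 and Siglec1 at 0.10. LILRA5 TBIG000280 had a common profile, with 178 features within 0.1, of which Iigp1 was the nearest at 0.01. LILRA5 TBIG001932 had 0 features within 0.1, and the nearest were the T cell receptor feature TRBV12-3 at 0.10 and Icos at 0.11. With 4 libraries, of which 1 is Media, all of these features share the same Media, MRSA, PA and mixed samples.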
